A study of Mus musculus with 12 samples.

Results

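The glucose uptake and phosphofructokinase genes are 10 named genes at the entry and the control points of glucose breakdown, namely the carriers Slc2a1 and Slc2a4, the hexokinases Hk1 and Hk2, the phosphofructokinases Pfkl, Pfkm and Pfkp, the kinase Pfkfb3, and the pyruvate dehydrogenase kinases Pdk2 and Pdk4. The rule names them for their place in the pathway and uses no measured value. The members, and the gene lists used below, were nonetheless chosen with earlier results of these data known. All 10 were found among the 38924 genes counted, and 10 of 10 passed the filter on low counts that left 16953 genes to test.

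Glucose enters cells through facilitative carriers. GLUT1 (Slc2a1) serves basal uptake in many cells, including the lactating mammary epithelium, whereas GLUT4 (Slc2a4) moves to the surface of fat and muscle cells in response to insulin. Hexokinases trap the sugar as glucose 6-phosphate, phosphofructokinase commits it to glycolysis under the control of an activator made by PFKFB3, and the pyruvate dehydrogenase kinases hold back the entry of pyruvate into the mitochondrial citric acid cycle.

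The 12 libraries were bulk RNA sequencing of sorted cells from C57BL/6 mice that carried the ROSAmTmG reporter with either Ucp1-iCre or Myf5-Cre, so that GFP marks cells that once expressed the recombinase and their descendants, whatever those cells express later. From each line came mammary myoepithelial cells, sorted as GFP-positive or GFP-negative and gated as lineage-negative, CD24-positive and CD29-high at lactation day 10, and GFP-positive brown adipocytes from virgin females 8 weeks old (n = 2 libraries in each of the 6 groups). Tissue and reproductive state changed together between the 2 cell types, so their parts cannot be told apart. The labels do not say that the libraries of a group came from separate animals, and the p-values below measure only the spread between these samples.

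Library totals ran from 11027738 to 32956480 counts. Both Ucp1 GFP-positive myoepithelial libraries differed from the rest, with 10909 and 10560 genes detected, against 19794 and 19213 in their GFP-negative partners, and with a correlation between replicates of 0.69 on the log2 scale, against 0.845 to 0.984 in the other groups. The mitochondrial chromosome took between 0.648% and 2.45% of a mammary library and between 12.6% and 35.997% of a brown adipocyte library. The contractile and basal list of 9 genes summed to between 1454 and 17280.0 CPM (counts scaled to a common library size with TMM factors) in mammary libraries and to between 15.0 and 140.0 CPM in brown adipocytes, where Krt5, Krt14 and Krt17 were at 0 in all 4 libraries. The brown adipocyte list of 8 genes summed to between 131 and 630.5 CPM in mammary libraries and to between 2507 and 24480.0 CPM in brown adipocytes, and Ucp1 itself was at 0 in all 4 GFP-positive myoepithelial libraries. Most of the mammary sums was Cidea, at 118.4 to 601.1 CPM, against at least 815.5 CPM in brown adipocytes. In any mammary library Ucp1 reached at most 2.707 CPM, Cox7a1 2.427 CPM and Elovl3 0.09173 CPM. Prdm16 overlapped between the tissues, at 6.547 to 38.13 CPM in mammary libraries and 15.02 to 28.77 CPM in brown adipocytes. The mammary libraries also held luminal and milk transcripts, at 11550.0 to 80120.0 CPM over 10 genes.

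The plainest contrast set the GFP-negative myoepithelial cells of both lines against brown adipocytes of both lines, 4 libraries against 4. Of the 10 genes, 1 was higher (Slc2a1) and 7 were lower in myoepithelial cells (Slc2a4, Hk2, Pfkl, Pfkp, Pfkfb3, Pdk2 and Pdk4), while Hk1 and Pfkm were not called. Over all genes tested, 26.6% were called, 14.6% higher and 12% lower, by edgeR's quasi-likelihood test with Benjamini-Hochberg adjustment at 0.05. The median log2 fold change was -2.46 over the 10 genes and 0.35 over all genes. In bulk samples, fewer cells of a type and less RNA per cell cannot be told apart.

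**Figure D1:**
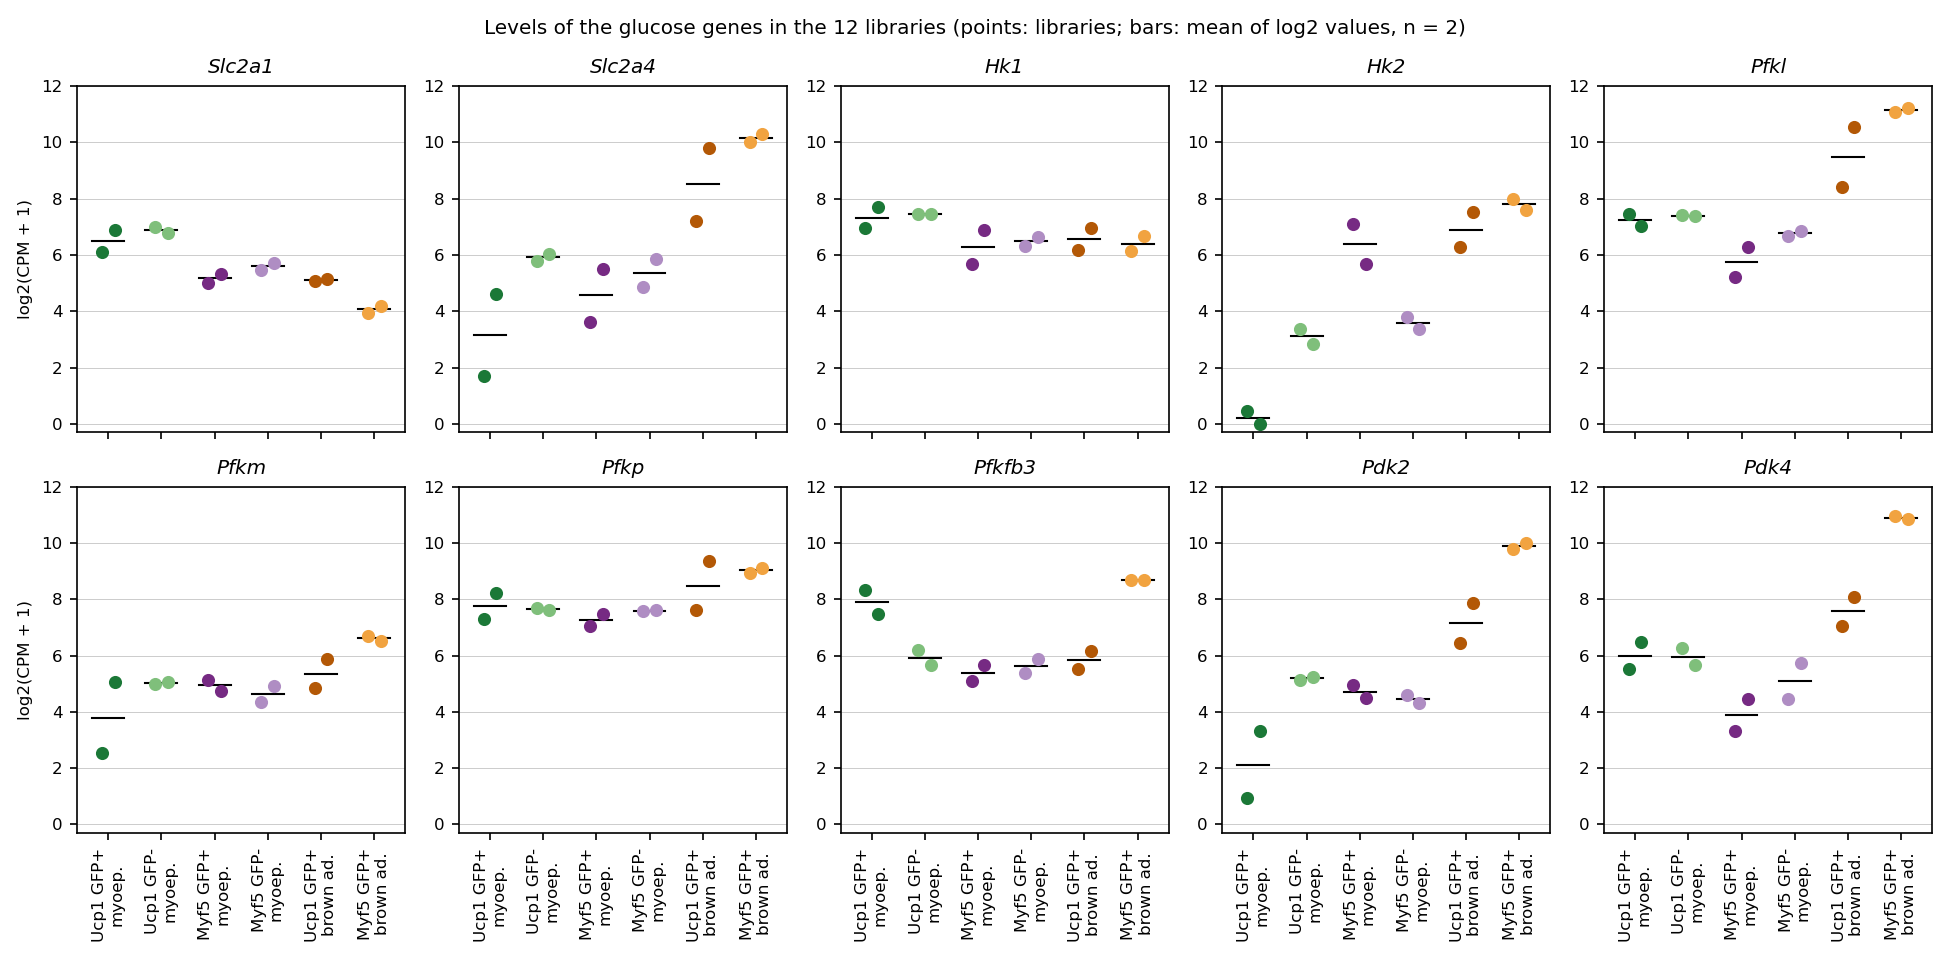
Levels of the 10 genes as log2(CPM + 1) (y axis) in each of the 6 groups (x axis), with 1 point per library and a bar at the mean of the log2 values (n = 2). Slc2a4, Pfkl, Pdk2 and Pdk4 lie highest in the brown adipocytes, and Hk2 lies near 0 in the Ucp1 GFP-positive myoepithelial cells.

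Among the carriers, Slc2a1 (ENSMUSG00000028645, chr4:119108711-119137983 in mm10, plus strand) had 128 and 108 CPM in Ucp1 and 42.7 and 52.1 CPM in Myf5 GFP-negative myoepithelial cells, against 32.9 and 34.02 CPM in Ucp1 and 14.4 and 17.2 CPM in Myf5 brown adipocytes. The groups did not overlap, and every myoepithelial library lay above every brown one. The difference was a log2 fold change of 1.70 ± 0.33 (SE; edgeR adjusted p = 0.00568). Slc2a4 (ENSMUSG00000018566, chr11:69942539-69948188, minus strand) had 54.5 and 64.9 CPM in Ucp1 and 27.9 and 56.4 CPM in Myf5 GFP-negative cells, against 146 and 898 CPM in Ucp1 and 1037 and 1258 CPM in Myf5 brown adipocytes. Again the groups did not overlap, now with brown adipocytes above, and the first Ucp1 brown library was the lowest of its tissue. The log2 fold change was -3.95 ± 0.86 (SE; edgeR adjusted p = 0.00999). The call for Slc2a4 was lost without the first Myf5 GFP-negative library (adjusted p = 0.0565) and without the first or second Ucp1 GFP-negative library (adjusted p = 0.0601 and 0.0545), with edgeR throughout.

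Of the hexokinases, Hk1 (ENSMUSG00000037012, chr10:62268855-62379908, minus strand), the form most cells use, averaged 133 ± 50.3 CPM in GFP-negative myoepithelial cells and 90.5 ± 25.6 CPM in brown adipocytes (SD, n = 4 each), with overlapping groups and no call. Hk2 (ENSMUSG00000000628, chr6:82725025-82774454, minus strand), the form associated with insulin-responsive tissues, had 9.29 and 6.18 CPM in Ucp1 and 12.8 and 9.39 CPM in Myf5 GFP-negative cells, against 75.9 and 183 CPM in Ucp1 and 255 and 194 CPM in Myf5 brown adipocytes. All 4 myoepithelial libraries lay far below all 4 brown ones. Its log2 fold change was -4.20 ± 0.81 (SE; edgeR adjusted p = 0.00575), and it stayed between -4.45 and -3.81 when any 1 of the 8 libraries was left out.

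The 3 phosphofructokinase genes, named for the liver, muscle and platelet subunits of the enzyme, were not alike. Pfkl (ENSMUSG00000020277, chr10:77986947-78010083, minus strand) had 169 and 166 CPM in Ucp1 and 102 and 115 CPM in Myf5 GFP-negative cells, against 338 and 1504 CPM in Ucp1 and 2163 and 2369 CPM in Myf5 brown adipocytes. The groups did not overlap, and the first Ucp1 brown library was again the lowest brown one. The log2 fold change was -3.42 ± 0.49 (SE; edgeR adjusted p = 0.00146). Pfkp (ENSMUSG00000021196, chr13:6579768-6648777, minus strand) averaged 197 ± 7.61 CPM in GFP-negative myoepithelial cells and 472 ± 197 CPM in brown adipocytes (SD, n = 4 each), with the first Ucp1 brown library, at 195 CPM, inside the myoepithelial range. It was called (log2 fold change -1.26 ± 0.40 SE, edgeR adjusted p = 0.0433), but the edgeR call was lost without any 1 of 7 of the 8 libraries (adjusted p = 0.0928 to 0.192), the exception being the first Ucp1 brown library, and the log2 fold change was -0.69 without the second Ucp1 brown library. Pfkm (ENSMUSG00000033065, chr15:98092589-98132451, plus strand) averaged 27.9 ± 5.78 CPM in GFP-negative myoepithelial cells and 69.7 ± 33.95 CPM in brown adipocytes, overlapped, and was not called (log2 fold change -1.21 ± 0.57 SE, edgeR adjusted p = 0.148), although DESeq2 called it (adjusted p = 0.0371), where it called 34.8% of all genes.

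Pfkfb3 (ENSMUSG00000026773, chr2:11471433-11554077, minus strand) makes the small molecule that switches phosphofructokinase on. It had 72.6 and 49.5 CPM in Ucp1 and 40.8 and 57.7 CPM in Myf5 GFP-negative cells, against 45.3 and 70.9 CPM in Ucp1 and 409 and 415 CPM in Myf5 brown adipocytes. The Ucp1 brown libraries lay within the myoepithelial range, so the distance between the cell types was carried by the Myf5 line. The mean over both lines gave a log2 fold change of -1.50 ± 0.33 (SE; edgeR adjusted p = 0.0109), which was not called without the second Ucp1 GFP-negative library (adjusted p = 0.0755).

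Both pyruvate dehydrogenase kinases were lower in myoepithelial cells. Pdk2 (ENSMUSG00000038967, chr11:95026258-95041354, minus strand) had 34.1 and 37.1 CPM in Ucp1 and 23.3 and 18.8 CPM in Myf5 GFP-negative cells, against 85.9 and 231 CPM in Ucp1 and 878 and 1010.0 CPM in Myf5 brown adipocytes. Pdk4 (ENSMUSG00000019577, chr6:5483351-5496309, minus strand), the form induced by fasting and by PPAR signals, had 75.9 and 49.1 CPM in Ucp1 and 20.8 and 51.8 CPM in Myf5 GFP-negative cells, against 132 and 271 CPM in Ucp1 and 1969 and 1827 CPM in Myf5 brown adipocytes. Neither gene overlapped between the cell types, and in both the Myf5 brown libraries lay well above the Ucp1 ones. The log2 fold changes were -3.82 ± 0.66 for Pdk2 and -3.70 ± 0.49 for Pdk4 (SE; edgeR adjusted p = 0.00348 and 0.00102).

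Skeletal muscle, which lies beside brown fat, also expresses Slc2a4, Hk2 and Pfkm. The muscle list of 10 genes summed to 48.6 and 45.8 CPM in Ucp1 and 27.8 and 16.6 CPM in Myf5 GFP-negative myoepithelial cells, against 235 and 82.7 CPM in Ucp1 and 222 and 342 CPM in Myf5 brown adipocytes. Of its genes, Ckm was at 0 in 1 of these 8 libraries, the second Myf5 brown one, and Myh4 in 5 of them. Mb alone gave 19.1 and 66.2 CPM in Ucp1 and 144 and 325 CPM in Myf5 brown adipocytes. Without Mb the other 9 genes summed to 45.8 and 41.5 CPM in Ucp1 and 26.7 and 14.5 CPM in Myf5 GFP-negative cells, against 216 and 16.5 CPM in Ucp1 and 78.6 and 16.4 CPM in Myf5 brown adipocytes, so that the second brown library of each line lay within the myoepithelial range. The part of muscle RNA in these differences was not tested. Slc2a1, Hk1, Hk2, Pfkm, Pfkp and Pdk2 overlap other annotated genes, and since the sources used here do not give the strand setting, reads from both cannot be told apart in those overlaps. Without mitochondrial and milk genes, the same 8 genes were called.

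Within each family, the share of each gene was computed per kilobase of merged exons, a measure that does not depend on scaling between libraries. Slc2a4 made up 39.9 ± 9.16% of the carrier pair in GFP-negative myoepithelial cells and 93.9 ± 8.13% in brown adipocytes (SD, n = 4 each). Hk2 made up 10.6 ± 6.14% of the hexokinase pair in GFP-negative myoepithelial cells and 71.5 ± 9.93% in brown adipocytes. No library of 1 cell type reached the other in either pair. Hk1 led its pair in all 4 GFP-negative libraries, whereas Slc2a1 led in 3 of the 4, the second Myf5 library having 52.2% Slc2a4.

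The phosphofructokinase genes changed their proportions as well. Pfkl held 46.8 ± 4.49% of the 3 genes in GFP-negative myoepithelial cells and 78.2 ± 6.88% in brown adipocytes. The rest went to Pfkp, at 34.1 ± 4.82% in myoepithelial cells and 13.9 ± 5.21% in brown adipocytes, and to Pfkm, at 19.0 ± 2.14% in myoepithelial cells and 7.88 ± 2.48% in brown adipocytes. Pfkl was the leading form in both cell types on this scale, whereas in GFP-negative myoepithelial cells Pfkp led on plain counts, at 54.7%, against 37.6% for Pfkl, and per kilobase of the longest coding transcript, at 50.9%, against 38.9%. For each of these 5 shares the two-sided exact permutation test gave p = 0.0286, the smallest that 4 against 4 libraries allow, and 0.0343 after Benjamini-Hochberg adjustment over the 6 shares tested. The test shuffled the libraries of both lines together, without keeping the lines apart. Shares also differed by line in places, with Pfkp at 19.8% and 16.8% in Ucp1 and 9.3% and 9.71% in Myf5 brown adipocytes. The 3 phosphofructokinase shares are parts of 1 sum, so their tests are not separate.

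Pdk4 took 59.2 ± 12.1% of the kinase pair in GFP-negative myoepithelial cells and 59.6 ± 6.55% in brown adipocytes (exact permutation p = 0.971). Both kinases were lower in myoepithelial cells with no detectable change of balance, and the mean share turned to higher in myoepithelial cells, by 0.44 to 4.53 percentage points, without the first Myf5 or the second Ucp1 GFP-negative library or without either Myf5 brown library. Taken per count, or per kilobase of the longest coding transcript, the share of Pfkm differed by 4.07 or 5.53 percentage points instead of 11.1, in the same direction.

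**Figure D2:**
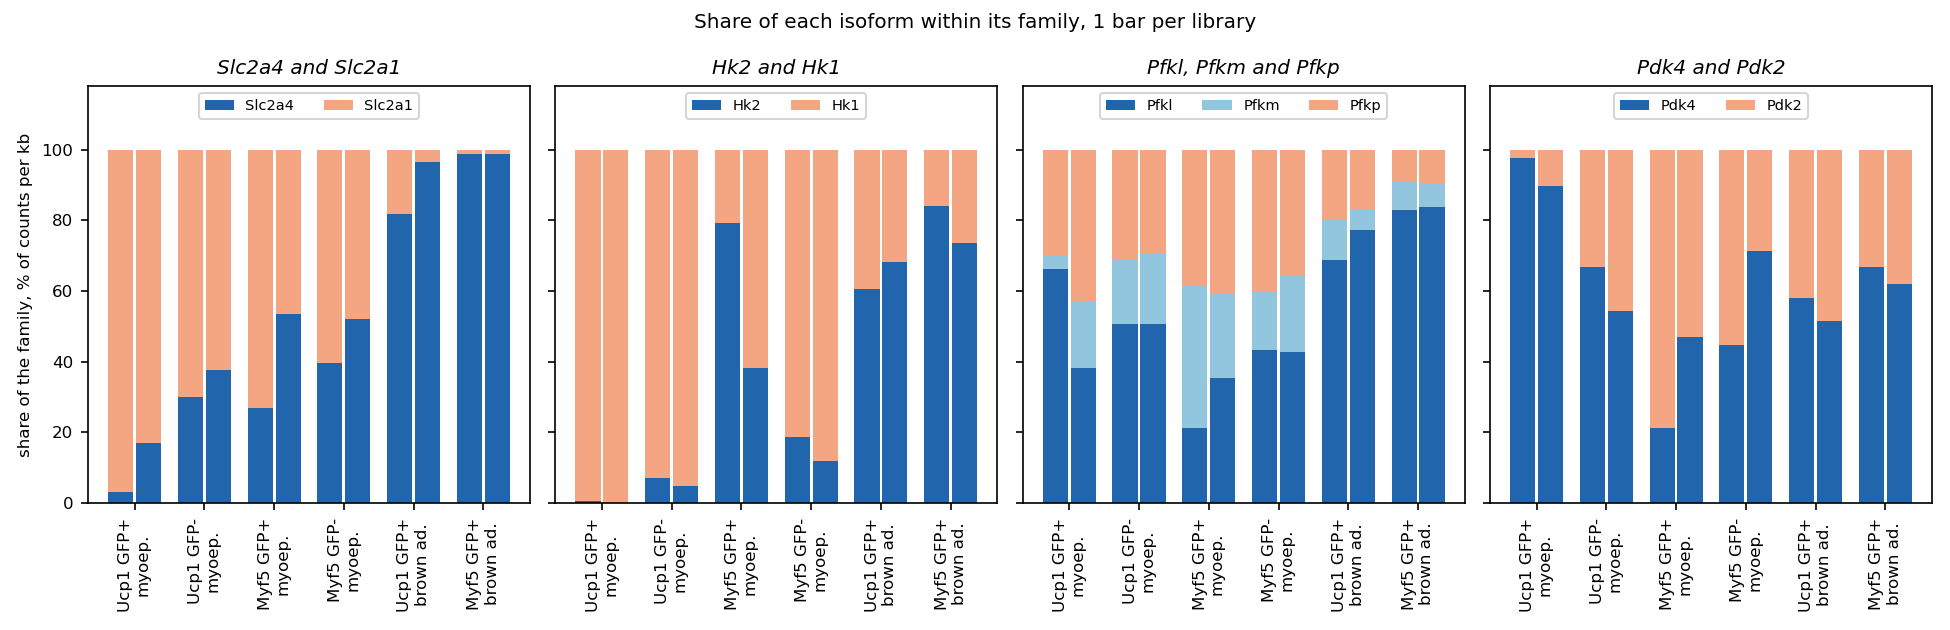
Share of each gene within its family, in percent of counts per kilobase (y axis), with 1 bar per library in 6 groups of 2 (x axis). Slc2a4, Hk2 and Pfkl take most of their families in the 4 brown adipocyte libraries, and Hk2 is close to 0% in both Ucp1 GFP-positive myoepithelial libraries.

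The traced myoepithelial cells departed from this layout in the hexokinase pair. Hk2 in the Ucp1 line had 0.37 and 0 CPM (10 and 0 counts) in GFP-positive cells, against 9.29 and 6.18 CPM in GFP-negative cells. The Myf5 line had 136 and 50.8 CPM in GFP-positive cells, against 12.8 and 9.39 CPM in GFP-negative cells. Both Ucp1 GFP-positive libraries lay below their GFP-negative partners and both Myf5 ones above theirs, the first Myf5 library within the range of brown adipocytes and the second below all 4 of them. The Ucp1 fall was a log2 fold change of -5.45 ± 1.27 (SE; edgeR adjusted p = 0.0202). The Myf5 value was 3.08 ± 1.09 (SE) and was not called (edgeR adjusted p = 0.395). The difference between the lines was itself called, at -8.53 ± 1.67 on the log2 scale (SE; edgeR adjusted p = 0.0102).

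Hk2 made up 0.43% and 0% of the hexokinase pair in Ucp1 GFP-positive cells, against 7.04% and 4.78% in Ucp1 GFP-negative cells. It made up 79.3% and 38.2% in Myf5 GFP-positive cells, against 18.6% and 11.9% in Myf5 GFP-negative cells. Hk1 had 122 and 206 CPM in Ucp1 GFP-positive and 175 and 176 CPM in Ucp1 GFP-negative cells, and 50.8 and 117.5 CPM in Myf5 GFP-positive and 79.7 and 99.7 CPM in Myf5 GFP-negative cells. The groups of each line overlapped for Hk1, which was called in no comparison by edgeR.

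Other cell type markers moved with the label. The contractile and basal list summed to 1454 and 3201 CPM in Ucp1 GFP-positive cells, against 10650.0 and 12290.0 CPM in Ucp1 GFP-negative cells, and to 2963 and 4547 CPM in Myf5 GFP-positive cells, against 9096 and 17280.0 CPM in Myf5 GFP-negative cells. The label thus went with lower myoepithelial markers in both lines. The luminal and milk list went the same way, at 14360.0 and 15790.0 CPM in Ucp1 GFP-positive cells, against 72490.0 and 80120.0 CPM in Ucp1 GFP-negative cells, and at 25810.0 and 11550.0 CPM in Myf5 GFP-positive cells, against 74350.0 and 41970.0 CPM in Myf5 GFP-negative cells. The fibroblast list of 7 genes summed to 18020.0 and 9718 CPM in Myf5 GFP-positive cells, against 836 and 484 CPM in Myf5 GFP-negative cells, with none of its genes at 0 in any of the 4 libraries. The pericyte list of 6 genes summed to 2853 and 2540.0 CPM in Myf5 GFP-positive cells, against 654 and 414 CPM in Myf5 GFP-negative cells. For the Ucp1 line the fibroblast list summed to 683 and 202 CPM in GFP-positive cells, against 2942 and 2355 CPM in GFP-negative cells, with Pdgfra and Dpt at 0 in the first GFP-positive library. The endothelial list of 6 genes summed to 5701 and 8169 CPM in Ucp1 GFP-positive cells, the 2 highest of the 8 mammary libraries, against 5290.0 and 5410.0 CPM in Ucp1 GFP-negative cells, and to 1067 and 1501 CPM in Myf5 GFP-positive cells, against 4224 and 3923 CPM in Myf5 GFP-negative cells. The part of these cells, and of the low number of genes detected, in the Hk2 and Pfkfb3 values was not tested.

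Pfkfb3 moved the other way in the Ucp1 line. It had 318 and 179 CPM in Ucp1 GFP-positive cells, against 72.6 and 49.5 CPM in Ucp1 GFP-negative cells, and 33.2 and 49.4 CPM in Myf5 GFP-positive cells, against 40.8 and 57.7 CPM in Myf5 GFP-negative cells. Both Ucp1 GFP-positive libraries lay above every other mammary library. The log2 fold change in the Ucp1 line was 2.03 ± 0.48 (SE; edgeR adjusted p = 0.0218). The difference between the lines, 2.28 ± 0.66 on the log2 scale (SE), was not called (edgeR adjusted p = 0.0578), while DESeq2, which called 18.3% of all genes there, gave an adjusted p of 0.00427.

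Under the Ucp1 label 1 of 10 genes was higher and 1 lower, where 14.3% of all genes were called, 0.277% higher and 14% lower, and the median was -0.25 over the 10 genes and -0.69 over all genes. Under the Myf5 label 0 of 10 genes and 0% of all genes were called by edgeR, with 1573 genes at an unadjusted p under 0.05. DESeq2 called Hk2 in the Myf5 line (adjusted p = 0.0393), as did edgeR without both Ucp1 GFP-positive libraries (adjusted p = 0.0496), where these settings called 4.27% and 1.4% of all genes. For the difference between the lines, Hk2 was the 1 called among the 10, where 11% of all genes were called, 0.283% higher and 10.7% lower, and the median was 0.04 over the 10 genes and -0.58 over all genes.

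These calls rest on few libraries. In edgeR fits, the Ucp1 call for Hk2 was lost without the first Ucp1 GFP-negative library (adjusted p = 0.0697) and in a fit of only the 4 libraries compared (adjusted p = 0.282, in a fit that called 23.3% of all genes), and the difference between the lines was lost without either Myf5 GFP-negative library (adjusted p = 0.0663 and 0.0695) and in a fit of only the mammary libraries (0.0675, with 7.57% of all genes called). Without the first Ucp1 GFP-positive library, which held all 10 counts, the Ucp1 value of Hk2 was -10.40 and the difference between the lines -13.47 (edgeR adjusted p = 0.000742 and 0.000389). The Pfkfb3 call was lost without the first Ucp1 GFP-positive library (edgeR adjusted p = 0.0593), without either Ucp1 GFP-negative library (0.0979 and 0.193), and in the fit of only those 4 libraries (0.0533).

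The remaining members did not pass the test for the label. Pdk2 had 0.92 and 8.98 CPM in Ucp1 GFP-positive cells, against 34.1 and 37.1 CPM in Ucp1 GFP-negative cells, without overlap (log2 fold change -2.84 ± 0.89 SE, edgeR adjusted p = 0.0622). Slc2a4 had 2.24 and 23.3 CPM in Ucp1 GFP-positive cells, against 54.5 and 64.9 CPM in Ucp1 GFP-negative cells, and Pfkm had 4.74 and 32.5 CPM, against 30.8 and 32.0 CPM. In Pdk2, Slc2a4 and Pfkm the first Ucp1 GFP-positive library was much the lower of the pair. Without the second Ucp1 GFP-positive library, 5 of 10 genes were called in the Ucp1 line by edgeR, where 22.9% of all genes were, with Pdk2 at a log2 fold change of -5.28, Slc2a4 at -4.74 and Pfkm at -2.74 (adjusted p = 0.00137, 0.0272 and 0.0131). The call for each of these 3 genes thus turned on which of the 2 GFP-positive libraries was used. Pdk2 was called by DESeq2 and by limma-voom in the Ucp1 line (adjusted p = 0.0177 and 0.0382), where they called 24.5% and 30.4% of all genes.

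Pfkp had 158 and 294 CPM in Ucp1 GFP-positive cells, against 207 and 195 CPM in Ucp1 GFP-negative cells, with the GFP-negative values inside the GFP-positive range. In the Myf5 line it had 133 and 178 CPM in GFP-positive cells, against 190.0 and 194 CPM in GFP-negative cells, without overlap and without a call. Pfkl had 36.2 and 76.7 CPM in Myf5 GFP-positive cells, against 102 and 115 CPM in Myf5 GFP-negative cells, and its log2 fold change of -0.94 ± 0.64 (SE) was not called (edgeR adjusted p = 0.802). The share of Pfkl among the 3 phosphofructokinase genes was 21.2% and 35.3% in Myf5 GFP-positive cells, against 43.3% and 42.6% in Myf5 GFP-negative cells, which made Pfkm or Pfkp the leading form per kilobase of merged exons in the GFP-positive cells of that line. On plain counts Pfkp led with and without the label, at 65.3% and 63.4% in Myf5 GFP-positive and 61.0% and 57.3% in Myf5 GFP-negative cells. It also led in both per kilobase of the longest coding transcript, so the change of leading form depended on the scale. In the Ucp1 line Pfkl held 66.2% and 38.2% per kilobase of merged exons in GFP-positive cells, against 50.65% and 50.8% in GFP-negative cells. Pfkp, at 42.8%, thus led in the second Ucp1 GFP-positive library as well.

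**Figure D3:**
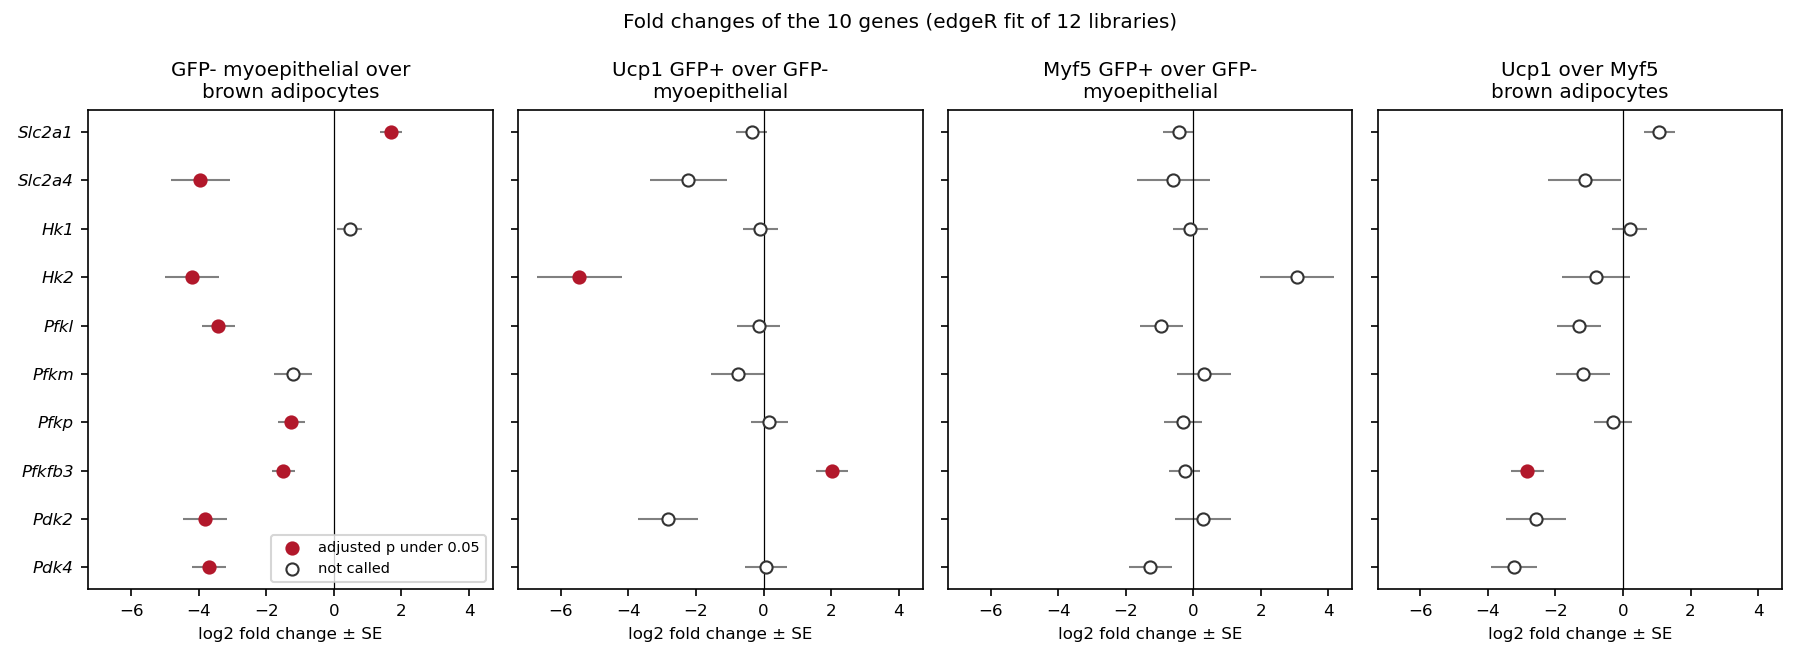
Log2 fold change ± SE (x axis) of each of the 10 genes (y axis) in 4 comparisons from the edgeR fit of all 12 libraries, with filled points for an adjusted p under 0.05. The first panel has 8 filled points, the Ucp1 label panel has Hk2 and Pfkfb3 on opposite sides of 0, and the Myf5 label panel has none.

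The promoters of 6 genes that moved between these groups are printed so that their composition can be set beside the levels. They are the 250 bases before an annotated transcript start in RefSeq's GRCm38.p6, on the gene's strand, with capitals at any match, on either strand, to AGGTCA (the core element of nuclear receptors), ACGTG (the core bound by hypoxia-inducible factors), CACGTG (an E-box, which contains ACGTG) or GGGCGG (a GC box). Hk2 (chr6:82774455-82774704, minus strand) and both start sites of Pfkfb3 (chr2:11553930-11554179 and chr2:11502091-11502340, minus strand) are shown because their calls had opposite signs under the Ucp1 label. Slc2a1 (chr4:119108495-119108744, plus strand) is shown as the only member called higher in GFP-negative myoepithelial cells, and Pfkl (chr10:78009808-78010057, minus strand), Pdk2 (chr11:95041372-95041621, minus strand, the first of 2 windows) and Pdk4 (chr6:5496279-5496528, minus strand) as genes high in brown adipocytes.
Hk2: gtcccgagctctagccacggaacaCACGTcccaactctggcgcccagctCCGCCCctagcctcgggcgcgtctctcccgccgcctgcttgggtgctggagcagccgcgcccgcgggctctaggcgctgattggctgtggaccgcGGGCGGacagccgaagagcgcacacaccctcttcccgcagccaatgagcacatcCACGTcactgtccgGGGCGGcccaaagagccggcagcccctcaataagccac
Pfkfb3, first window: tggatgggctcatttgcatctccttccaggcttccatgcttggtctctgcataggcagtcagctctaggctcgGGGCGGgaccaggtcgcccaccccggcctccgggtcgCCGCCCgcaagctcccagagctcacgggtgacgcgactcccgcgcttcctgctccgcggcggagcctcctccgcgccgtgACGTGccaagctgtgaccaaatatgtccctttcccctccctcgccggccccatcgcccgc
Pfkfb3, second window: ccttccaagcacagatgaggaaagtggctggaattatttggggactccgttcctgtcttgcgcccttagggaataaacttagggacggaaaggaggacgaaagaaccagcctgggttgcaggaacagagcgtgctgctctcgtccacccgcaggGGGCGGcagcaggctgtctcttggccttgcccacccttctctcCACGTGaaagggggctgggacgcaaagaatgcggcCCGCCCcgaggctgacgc
Slc2a1: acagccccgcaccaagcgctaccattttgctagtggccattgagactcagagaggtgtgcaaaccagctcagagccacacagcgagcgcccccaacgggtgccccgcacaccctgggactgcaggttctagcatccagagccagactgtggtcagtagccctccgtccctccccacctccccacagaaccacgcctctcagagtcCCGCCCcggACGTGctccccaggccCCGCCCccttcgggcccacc
Pfkl: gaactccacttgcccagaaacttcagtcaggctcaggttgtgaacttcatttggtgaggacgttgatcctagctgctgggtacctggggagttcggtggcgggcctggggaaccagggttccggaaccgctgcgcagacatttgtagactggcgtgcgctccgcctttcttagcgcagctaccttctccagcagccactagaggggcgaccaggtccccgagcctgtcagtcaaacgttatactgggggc
Pdk2, first window: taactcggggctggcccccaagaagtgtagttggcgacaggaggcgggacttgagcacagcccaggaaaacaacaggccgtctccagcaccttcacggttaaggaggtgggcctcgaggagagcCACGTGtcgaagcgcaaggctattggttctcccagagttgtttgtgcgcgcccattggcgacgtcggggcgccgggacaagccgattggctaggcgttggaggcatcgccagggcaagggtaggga
Pdk4: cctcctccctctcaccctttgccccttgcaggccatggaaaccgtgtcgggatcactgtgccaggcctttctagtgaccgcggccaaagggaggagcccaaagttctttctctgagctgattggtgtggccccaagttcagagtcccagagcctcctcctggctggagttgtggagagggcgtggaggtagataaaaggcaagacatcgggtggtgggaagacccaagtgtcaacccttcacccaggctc

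Hk2, low with the Ucp1 label, held 2 matches to ACGTG and 3 GC boxes, and Pfkfb3, high with it, held 1 and 2 matches to ACGTG and 2 GC boxes in each window. The 2 matches in the second Pfkfb3 window lie in its single E-box. Slc2a1 held 1 match to ACGTG and 2 GC boxes. Pdk2 held 2 matches to ACGTG, which lie in its single E-box, and its second window, not printed, held none of the 4 motifs. Pfkl and Pdk4 also held none of them. None of the printed windows held AGGTCA. Of 32851 windows of the same length, 16.57% held ACGTG, 6.02% CACGTG, 32.74% GGGCGG and 14.02% AGGTCA. The GC content of the printed windows ran from 58.8% in Pdk4 to 69.6% in Hk2, each above the median of 52.4% over all windows. Windows matched 9 of the 10 genes, Slc2a4 being the exception.

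Set against brown adipocytes of the same line, the GFP-positive myoepithelial cells were lower in Slc2a4, Pfkl and Pdk2 in both lines. In the Myf5 line 0 of 10 genes were higher and 5 lower (Slc2a4, Pfkl, Pfkfb3, Pdk2 and Pdk4), where 19.8% of all genes were called, 10.9% higher and 8.84% lower, with medians of -2.53 over the 10 genes and 0.14 over all genes. In the Ucp1 line 2 of 10 were higher (Slc2a1 and Pfkfb3) and 4 lower (Slc2a4, Hk2, Pfkl and Pdk2), where 27.8% of all genes were called, 5.34% higher and 22.5% lower, with medians of -1.40 and -0.69. The 2 comparisons share no library. Without both Ucp1 GFP-positive libraries 8 of 10 genes were called in the Myf5 line, where 37.5% of all genes were.

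Pfkl had 36.2 and 76.7 CPM in Myf5 GFP-positive myoepithelial cells, against 2163 and 2369 CPM in Myf5 brown adipocytes (log2 fold change -5.33 ± 0.76 SE, edgeR adjusted p = 0.00231). In the Ucp1 line it had 173 and 131 CPM in GFP-positive myoepithelial cells, against 338 and 1504 CPM in brown adipocytes (-2.60 ± 0.67 SE, edgeR adjusted p = 0.02). No library overlapped in either line, although the first Ucp1 brown library stood close to the myoepithelial ones. Without the second Ucp1 brown library the Ucp1 value of Pfkl was -1.15 and was not called (edgeR adjusted p = 0.161), and it was not called without the second Ucp1 GFP-positive library either (adjusted p = 0.0608).

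Slc2a4 differed by about the same log2 fold change in both lines, -5.35 ± 1.30 in the Ucp1 line and -5.35 ± 1.30 in the Myf5 line (SE; edgeR adjusted p = 0.0162 and 0.0212). The Myf5 call was lost without any 1 of its 4 libraries (edgeR adjusted p = 0.0504 to 0.116), and the Ucp1 call without the second Ucp1 brown library (-3.51, adjusted p = 0.095). Pdk2 had 0.92 and 8.98 CPM in Ucp1 GFP-positive myoepithelial cells, against 85.9 and 231 CPM in Ucp1 brown adipocytes (-4.99 ± 0.98 SE, edgeR adjusted p = 0.00645). In the Myf5 line Pdk2 had 29.6 and 21.6 CPM in GFP-positive myoepithelial cells, against 878 and 1010.0 CPM in brown adipocytes (-5.20 ± 0.99 SE, edgeR adjusted p = 0.00777), a call lost without either Myf5 GFP-positive library (adjusted p = 0.0529 and 0.0518).

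Pdk4 had 8.91 and 21.2 CPM in Myf5 GFP-positive myoepithelial cells, against 1969 and 1827 CPM in Myf5 brown adipocytes, the longest distance of any member in that line (log2 fold change -6.98 ± 0.82 SE, edgeR adjusted p = 0.00113). In the Ucp1 line it had 44.6 and 87.6 CPM in GFP-positive myoepithelial cells, against 132 and 271 CPM in brown adipocytes, without overlap and without a call (-1.61 ± 0.64 SE, edgeR adjusted p = 0.0904). The 2 GFP-positive libraries of the Ucp1 line, low in Pdk2, gave Pdk4 97.8% and 89.8% of the kinase pair per kilobase, against 21.3% and 46.9% in Myf5 GFP-positive cells. Those 2 libraries had the 2 highest Pdk4 shares of the 12.

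Hk2 separated the lines again in this setting. It was lower in the Ucp1 line, with a log2 fold change of -9.52 ± 1.48 (SE; edgeR adjusted p = 0.0022), a value fitted against 10 and 0 counts in the GFP-positive cells. Within the Myf5 line the 136 and 50.8 CPM of the GFP-positive cells, against 255 and 194 CPM in brown adipocytes, gave -1.26 ± 1.02 (SE) and no call (edgeR adjusted p = 0.411). Pfkfb3 was lower than in brown adipocytes in the Myf5 line (-3.32 ± 0.50 SE, edgeR adjusted p = 0.00301) and higher in the Ucp1 line (2.10 ± 0.48 SE, adjusted p = 0.0125). The Ucp1 call for Pfkfb3 was lost without the first Ucp1 brown library (1.80, edgeR adjusted p = 0.0796).

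Slc2a1 had 68.6 and 116 CPM in Ucp1 GFP-positive myoepithelial cells, against 32.9 and 34.02 CPM in Ucp1 brown adipocytes, without overlap. The log2 fold change of 1.46 ± 0.46 (SE; edgeR adjusted p = 0.0409) was lost without the second Ucp1 GFP-positive library (1.03, adjusted p = 0.102) and without the first or second Ucp1 brown library (0.151 and 0.154). In the Myf5 line Slc2a1 had 30.95 and 39.3 CPM in GFP-positive myoepithelial cells, against 14.4 and 17.2 CPM in brown adipocytes, and was not called (1.15 ± 0.46 SE, edgeR adjusted p = 0.103). Fitted on only the 4 libraries of the Ucp1 line, edgeR called 0 of 10 members, and 0% of all genes, between GFP-positive myoepithelial cells and brown adipocytes.

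Between the brown adipocytes of the 2 lines, Pfkfb3 was the 1 gene of 10 called, at 45.3 and 70.9 CPM in Ucp1 brown adipocytes, against 409 and 415 CPM in Myf5 brown adipocytes (log2 fold change -2.82 ± 0.49 SE, edgeR adjusted p = 0.0353). Over all genes 1.32% were called, 1.29% higher and 0.0236% lower. Pdk4 (-3.23 ± 0.68 SE) and Pdk2 (-2.57 ± 0.88 SE), each without overlap between the lines, were not called (edgeR adjusted p = 0.0567 and 0.224), while DESeq2 called Pfkfb3, Pdk2 and Pdk4, where it called 8.77% of all genes. The edgeR call for Pfkfb3 was lost without any 1 of the 4 brown libraries (adjusted p = 0.0584 to 0.277), and limma-voom, with 0.248% of all genes called, called Pdk4 and not Pfkfb3. A fit of only the brown libraries called Pfkfb3 and Pdk4 (5.74% of all genes), and one without both Ucp1 GFP-positive myoepithelial libraries called 3 members (5.62%).

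The lines' brown adipocytes also differed in other markers. The brown adipocyte list summed to 2507 and 8086 CPM in the Ucp1 line, against 19360.0 and 24480.0 CPM in the Myf5 line, and the endothelial list summed to 3198 and 1784 CPM, against 15.1 and 368 CPM. The erythroid list of 6 genes summed to 1427 and 461 CPM in Ucp1 brown adipocytes, against 39.6 and 138 CPM in Myf5 brown adipocytes. No endothelial gene was at 0 in any of these 4 libraries. Their part in the Pfkfb3, Pdk2 and Pdk4 values was not tested.

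**Figure D4:**
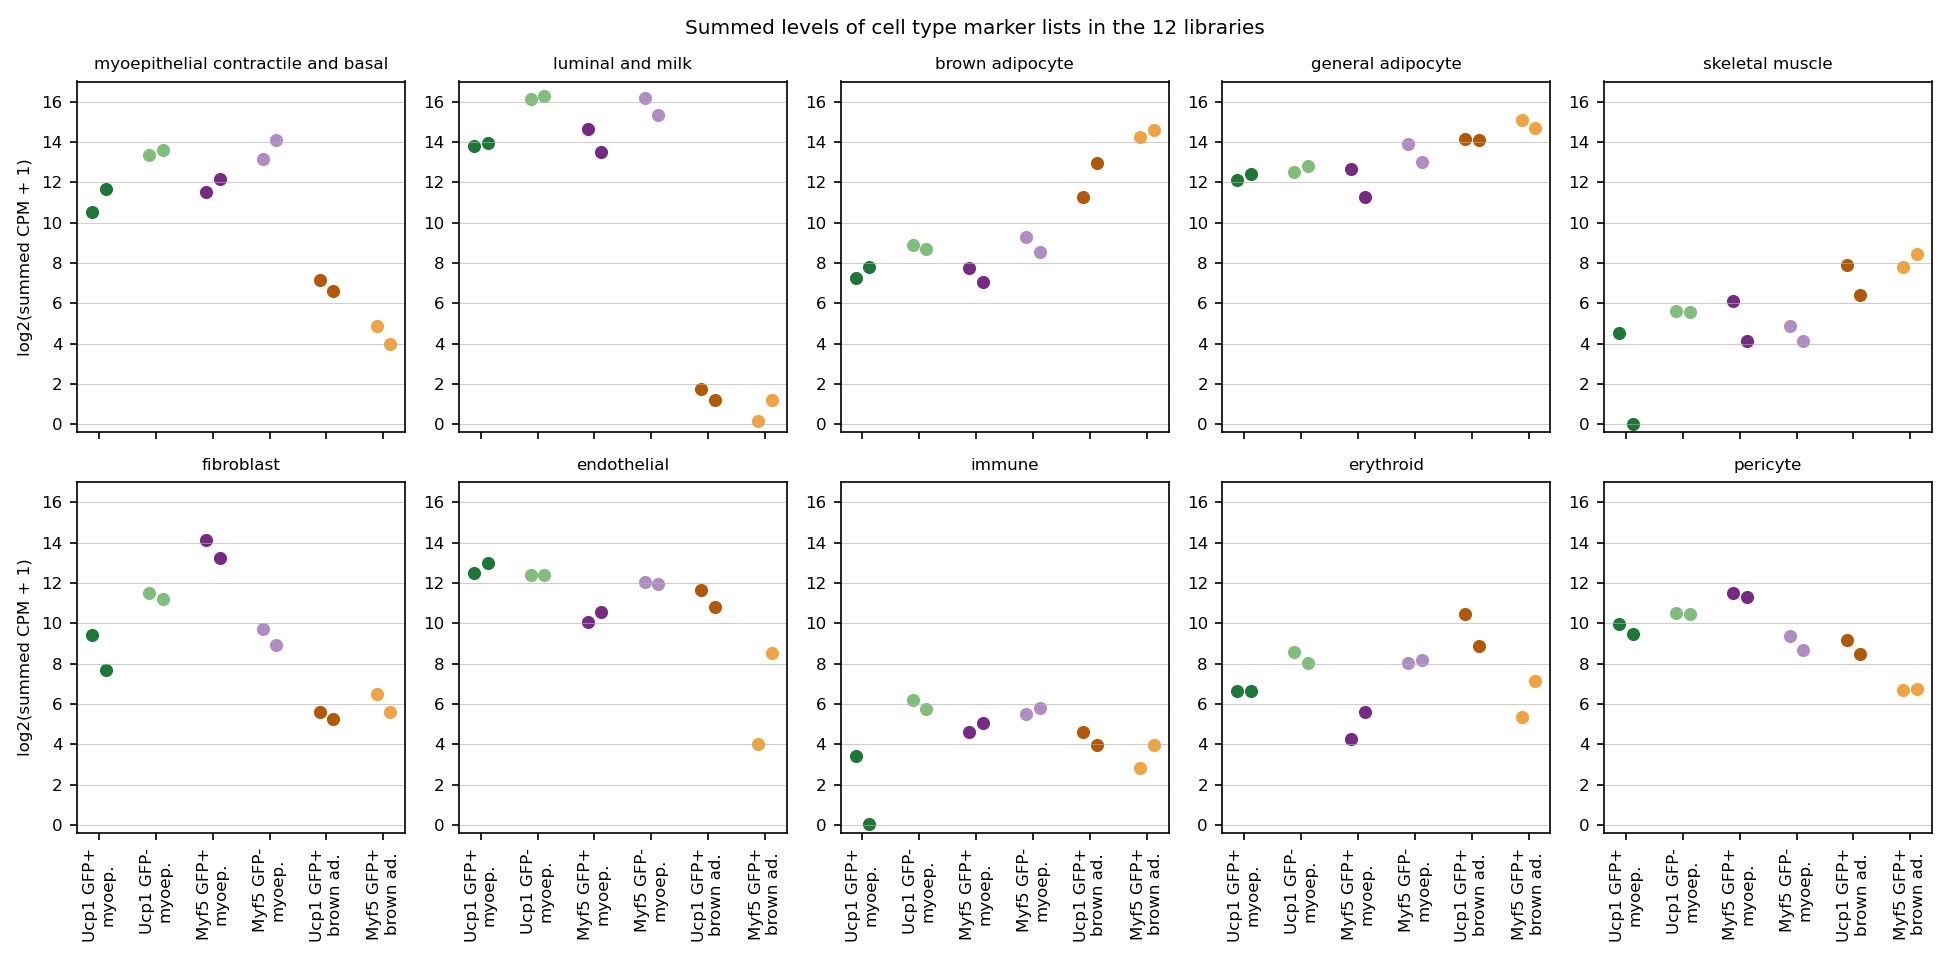
Summed levels of 10 cell type marker lists as log2(summed CPM + 1) (y axis) in the 6 groups (x axis), 1 point per library. The fibroblast list is highest in Myf5 GFP-positive myoepithelial cells, and the endothelial list lies higher in Ucp1 than in Myf5 brown adipocytes.

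GFP-negative myoepithelial cells of the 2 lines gave no call among the 10 genes by edgeR, where 0% of all genes were called and 604 genes had an unadjusted p under 0.05. DESeq2 and limma-voom also called 0 of 10, where they called 0.254% and 0% of all genes. Slc2a1 had the widest distance, at 128 and 108 CPM in the Ucp1 line, against 42.7 and 52.1 CPM in the Myf5 line, without overlap (log2 fold change 1.31 ± 0.46 SE, edgeR adjusted p = 1). Hk1, Hk2, Pfkl, Pfkm, Pfkp and Pdk2 did not overlap between the lines either. With 2 libraries in each group a lack of overlap thus says little by itself, here and in the other comparisons of 2 groups. The share of all genes without overlap was not computed.

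Ordered by group means, 7 members (Slc2a4, Hk2, Pfkl, Pfkm, Pfkp, Pdk2 and Pdk4) were highest in Myf5 brown adipocytes, with Ucp1 brown adipocytes next and the 4 mammary groups after them. Slc2a1 ran the other way, from 117.9 ± 13.7 CPM in Ucp1 GFP-negative cells through 92.2 ± 33.5 CPM in Ucp1 GFP-positive cells, which overlapped, to 15.8 ± 2.00 CPM in Myf5 brown adipocytes (SD, n = 2 each). Pfkfb3 was highest in Myf5 brown adipocytes, at 412 CPM, with Ucp1 GFP-positive cells next, at 249 CPM, and the other 4 groups between 41.3 and 61.0 CPM, each overlapping its neighbour. For Hk1 every neighbouring pair of groups overlapped. Per kilobase of merged exons, the most abundant member in Myf5 brown adipocytes was Pdk4, at 541 CPM per kilobase, followed by Pfkl at 339, Slc2a4 at 329.9 and Pdk2 at 298.

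Profiles over the 12 libraries were compared by the root mean square difference of centred log2(CPM + 1) values among 9010 nuclear protein-coding genes, for the 8 members whose highest group mean was at least 4 times the lowest. Nearest to Pfkl was Pnpla2, which encodes the main fat cell lipase, at 0.381, and nearest to Pdk4 was Acacb, an acetyl-CoA carboxylase of the mitochondrial surface, at 0.609, with Pfkl next at 0.715. Pdk2 was followed by Ndufs1, a subunit of respiratory complex I, at 0.513, and Slc2a4 by Txnrd2, a mitochondrial thioredoxin reductase, at 0.588. Hk2 lay nearest to Pon3 (0.532) and Nnmt (0.758), which were likewise at or near 0 in both Ucp1 GFP-positive libraries and higher in Myf5 GFP-positive than in Myf5 GFP-negative cells. For Pfkfb3 the nearest genes were Rnf123 (0.484) and Zer1 (0.507), for Slc2a1 Tle4 (0.362) and Lats2 (0.366), and for Pfkm Ccng1 (0.266) and Fggy (0.331). These are descriptions over 12 libraries that share tissue and line, and with an offset of 0.1 CPM the nearest gene changed for Slc2a1 and Slc2a4. For Slc2a1 the 2 named genes only traded places. At that offset Maob took the place of Nnmt as the second gene for Hk2, and Gid8 that of Fggy for Pfkm.

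The rest of the pathway was followed in 100 other genes in 8 lists, of which 95 were tested. Between GFP-negative myoepithelial cells and brown adipocytes 17 of the 95 were higher and 40 lower, where 14.6% and 12% of all genes were. Fewer of the 95 were called without any 1 of the 8 libraries, and so were fewer of all genes. In the list on the entry of pyruvate into mitochondria 0 of 15 were higher and 10 lower, with a median log2 fold change of -3.03. The other 5 were not called, with Slc16a3 (0.97) and Pdk3 (0.59) above 0. This list also holds the lactate carrier genes Slc16a1 and Slc16a3 and the kinase genes Pdk1 and Pdk3, whose products hold this entry back. Slc16a1 (-3.14) and Pdk1 (-1.90) were among the 10 lower. The mitochondrial pyruvate carrier gene Mpc2 had 72.8 and 87.3 CPM in Ucp1 and 65.1 and 55.4 CPM in Myf5 GFP-negative cells, against 814 and 1419 CPM in Ucp1 and 2464 and 2483 CPM in Myf5 brown adipocytes (-4.58 ± 0.34 SE, edgeR adjusted p = 8.53e-05). The pyruvate dehydrogenase subunit genes Pdha1 and Pdhb were lower as well (-4.21 ± 0.55 and -3.66 ± 0.45 SE, edgeR adjusted p = 0.000962 and 0.000701). Neither cell group overlapped the other for Mpc2.

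Of the remaining glycolytic genes 4 of 15 were higher and 7 lower, with a median of -1.17. Aldolase (Aldoa, -4.18) and lactate dehydrogenase B (Ldhb, -4.42) were lower, and Gapdh was higher (6.25 ± 0.40 SE, edgeR adjusted p = 5.67e-05), with 419 to 1195 CPM in mammary libraries, against 6.47 to 14.2 CPM in brown adipocytes. Gapdh shares 53.7%, Ldhb 31.8% and Aldoa 28.3% of its 31-base sequences with other genes, so that these values depend on how reads with several matches were counted and are uncertain. The same limit holds for the values of Pdhb (22.5%), Akt2 (28%) and Irs1 (30.6%). It also holds for the called glycolytic genes Gpi1 (35.98%), Ldha (37.01%), Tpi1 (19.27%), Pkm (50.61%), Eno1 (53.07%) and Pgam1 (56.36%). Of the glycolytic genes called, only Eno2 (1.07%) and Aldoc (0%) share little, so the counts and median of that list are uncertain too. In other lists the limit extends to Mpc1 (43.12%), G6pdx (26.98%) and Taldo1 (19.63%). The members share 0% to 6.83%.

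The branches of glucose use had 4 of 17 genes higher and 11 lower, with a median of -3.42. Gpd1, which turns a glycolytic intermediate into the backbone of triglycerides, was lower (-9.51 ± 0.78 SE, edgeR adjusted p = 0.00013), as was Pgd of the pentose phosphate pathway (-3.61 ± 0.36 SE, adjusted p = 0.000311). Lalba, the regulatory subunit of lactose synthase and a milk protein, was higher (10.87 ± 0.99 SE, edgeR adjusted p = 0.000209). Among other sugar carriers 3 of 11 were higher and 2 lower, with a median of 0.81. The fructose carrier gene Slc2a5 had 39.7 and 212 CPM in Ucp1 and 84.1 and 81.0 CPM in Myf5 brown adipocytes, and at most 0.0917 CPM in any GFP-negative library (log2 fold change -12.09 ± 1.02 SE, edgeR adjusted p = 0.000701). Slc5a1, a sodium-coupled carrier gene, was at 0 in all 4 brown libraries and at least 95.7-fold higher in GFP-negative myoepithelial cells, taking 3 counts over the brown group as the floor.

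The insulin and GLUT4 traffic list had 1 of 14 genes higher (Pik3r1, 1.85 ± 0.48 SE) and 4 lower, among them the kinase gene Akt2 (-3.49 ± 0.51 SE) and Aspscr1, which tethers GLUT4 vesicles (-1.35 ± 0.36 SE; edgeR adjusted p = 0.0213, 0.00166 and 0.0231). The regulators had 5 of 16 higher and 4 lower, with a median of 0.19. Mlxipl, the glucose-sensing factor ChREBP, was lower (-8.68 ± 0.97 SE), and Epas1, a hypoxia-inducible factor gene, and Mef2c, of a family that binds the Slc2a4 promoter, were higher (1.98 ± 0.31 and 3.57 ± 0.44 SE; edgeR adjusted p = 0.00107, 0.00235 and 0.000765). Of the other genes for the phosphofructokinase activator 0 of 4 were higher and 1 lower (Pfkfb1).

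**Figure D5:**
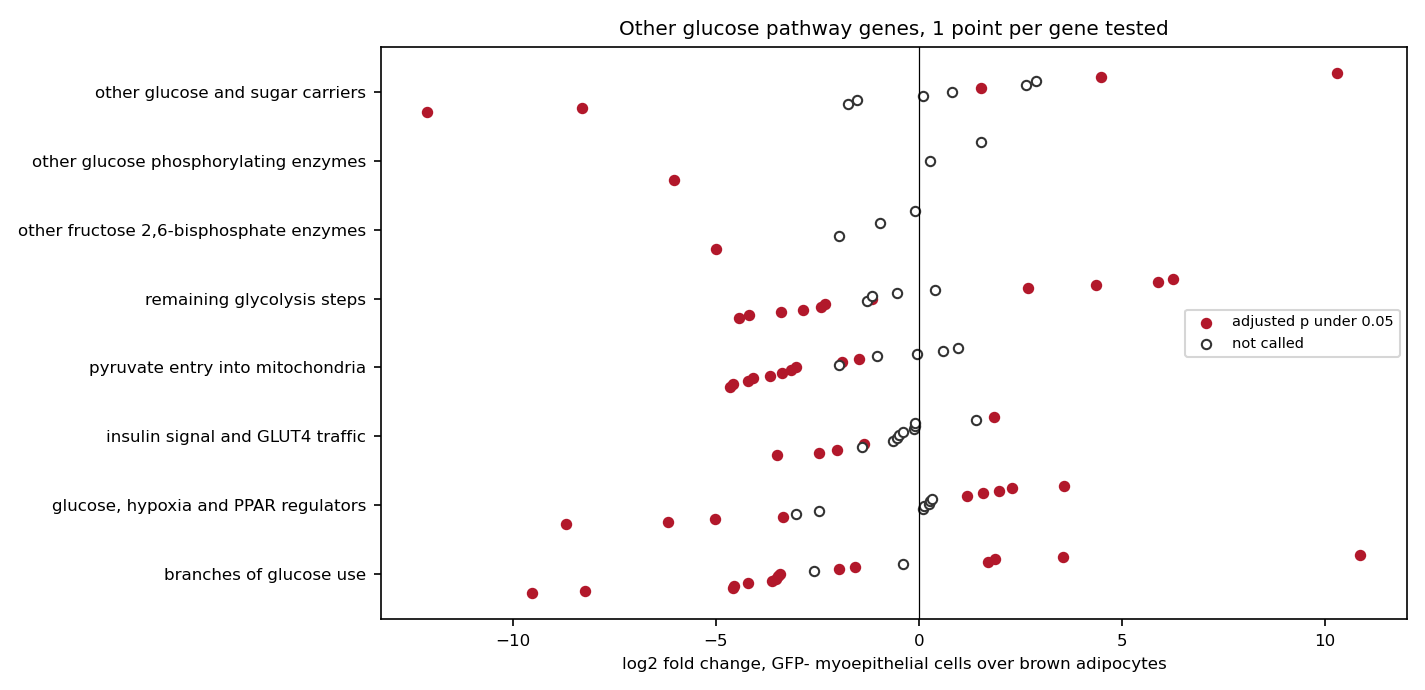
Log2 fold changes of GFP-negative myoepithelial cells over brown adipocytes (x axis) for the tested genes of 8 pathway lists (y axis), with filled points for an edgeR adjusted p under 0.05. Most genes of pyruvate entry and of the branches lie left of 0, where 10 and 11 of them were called.

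Under the Ucp1 label 0 of these 95 genes were higher and 18 lower, where 0.277% and 14% of all genes were. Fewer were called without either Ucp1 GFP-negative library, and so were fewer of all genes. Under the Myf5 label none was called by edgeR, where 0% of all genes were, while DESeq2 called 6, where it called 4.27% of all genes. Several genes of the Ucp1 line were at 0 in both GFP-positive libraries. Taking 3 counts over the group as the floor, Adpgk, a kinase that uses ADP, was at least 528-fold lower, the carrier gene Slc2a10 at least 328-fold, the lactate carrier gene Slc16a3 at least 176-fold, the insulin receptor substrate gene Irs1 at least 133-fold and Pfkfb4, a relative of Pfkfb3, at least 110.0-fold. Sort1, which sorts GLUT4 into its vesicles, had 0.0368 and 0 CPM in Ucp1 GFP-positive cells, against 45.4 and 28.6 CPM in Ucp1 GFP-negative cells (-10.78 ± 1.25 SE, edgeR adjusted p = 0.00131). These genes join Hk2 among those near 0 in libraries where 10909 and 10560 genes had any count, and the part of that low number in their values was not tested.

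Between GFP-positive myoepithelial cells and brown adipocytes, 8 of the 95 genes were higher and 41 lower in the Ucp1 line, where 5.34% and 22.5% of all genes were, and 12 higher and 34 lower in the Myf5 line, where 10.9% and 8.84% were. The Ucp1 total of 49 was lower without the second Ucp1 brown library, and the Myf5 total of 46 without the first Myf5 GFP-positive library. In both fits fewer of all genes were called as well. Pyruvate entry had 0 of 15 higher in either line, with 10 lower in the Ucp1 line and 9 in the Myf5 line. Mpc2 was among them in both, at -4.61 ± 0.48 in the Ucp1 line and -4.94 ± 0.48 in the Myf5 line (SE; edgeR adjusted p = 0.000653 and 0.000729). Between the lines' brown adipocytes 2 of 95 genes were higher and 0 lower, where 1.29% and 0.0236% of all genes were. Mef2c had 106 and 43.3 CPM in Ucp1 brown adipocytes, against 2.32 and 4.49 CPM in Myf5 brown adipocytes (4.45 ± 0.66 SE, edgeR adjusted p = 0.026). Pygm, the muscle glycogen phosphorylase, had 33.1 and 15.0 CPM in Ucp1 brown adipocytes, against 1.71 and 2.02 CPM in Myf5 brown adipocytes (3.68 ± 0.65 SE, edgeR adjusted p = 0.0354). Neither gene overlapped between the lines. Both calls were lost without the first Myf5 brown library and without the first Ucp1 brown library. The part of the endothelial and other markers that differed between the lines' brown adipocytes in the Mef2c and Pygm values was not tested.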

How the data were processed

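RNA was isolated with the RNeasy Micro kit, cDNA was amplified with the low-input SMART-Seq v4 kit and sequenced on an Illumina HiSeq instrument, per the labels' protocols. TopHat, HTSeq and DESeq2 and the build mm10 are named, per the submitters' processing notes, with no versions, and no source used here gives the strand setting. Deposited by the authors were 12 tables, 1 per library, of raw counts per gene with no normalization, and totals of 11027738 to 32956480 set a floor of 3 counts at 0.091 to 0.272 CPM, for counting error only.

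Counts were scaled with TMM factors and filtered with filterByExpr (minimum count 10), and edgeR 4.0.16's quasi-likelihood test was fitted to all 12 libraries with 1 mean per group, giving 8 comparisons with Benjamini-Hochberg adjustment over 16953 genes at 0.05. DESeq2 1.42.0 and limma-voom 3.58.1 were alternatives, with RLE factors, no filter, only the groups compared, removal of both Ucp1 GFP-positive myoepithelial libraries or of mitochondrial and milk genes, a replicate block and single libraries left out. The fit was tested on simulated data. Lengths are merged exons of GENCODE M21 (mm10). Shares within families were compared by a two-sided exact permutation test, with plain counts and, chosen after seeing the data, the longest coding transcript as alternative scales. Shared sequence is the percent of a gene's 31-base words, taken every 10 bases, found in another gene. Besides the members, up to 3 called genes of smallest adjusted p were named per pathway list and comparison, and the 2 nearest profiles per member. The members and lists were chosen with earlier results of these data known. Some items are not reported here.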

Additional observations from a re-analysis of the deposited data

Results flagged for a closer look

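The effect of the GFP label differed between the Ucp1 and Myf5 lines for 12 of the 105 members and pathway genes tested (11.4%), by the edgeR test of the difference itself, in a comparison where 11% of all genes were called and 10.7% were lower in the Ucp1 line, a share near that of all genes. Hk2 was the 1 member among them (adjusted p = 0.0102). The others, with edgeR adjusted p in parentheses, were the carrier genes Slc2a10 (0.00966) and Slc16a3 (0.00359), the glycolytic genes Adpgk (0.00453), Pfkfb4 (0.00476), Pgam2 (0.0489) and Eno2 (0.00612), the insulin and GLUT4 traffic genes Irs1 (0.00522), Tbc1d4 (0.0293) and Sort1 (0.00198), and the branch genes Ugp2 (0.0315) and Gfpt2 (0.0265). With any 1 of the 8 mammary libraries left out in edgeR, the call for Pgam2 was lost in all 8 fits (adjusted p = 0.0553 to 0.153), for Ugp2 in 7 (up to 0.147), for Gfpt2 and Tbc1d4 in 5 each (up to 0.13 and 0.129), and for Slc2a10 and Hk2 in 2 each, without either Myf5 GFP-negative library (up to 0.0675 and 0.0695). The calls for the other 6 genes were kept in all 8 fits. Gfpt2, of hexosamine synthesis, had 43.8 and 3.30 CPM in Ucp1 GFP-positive cells, against 89.6 and 54.7 CPM in Ucp1 GFP-negative cells, and 622 and 1038 CPM in Myf5 GFP-positive cells, against 32.0 and 18.0 CPM in Myf5 GFP-negative cells. Ugp2, of glycogen synthesis, had 22.6 and 28.6 CPM in Ucp1 GFP-positive cells, against 71.3 and 61.6 CPM in Ucp1 GFP-negative cells, and 132 and 140.4 CPM in Myf5 GFP-positive cells, against 78.9 and 65.9 CPM in Myf5 GFP-negative cells. For both genes the GFP-positive libraries lay below their GFP-negative partners in the Ucp1 line and above them in the Myf5 line. The Ucp1 GFP-positive libraries had 10909 and 10560 genes detected, and the part of that in these values was not tested.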

How the results depend on the processing

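Outside the removal of single libraries, 408 of 450 alternative values of 59 member fold changes kept direction and side of the threshold, 14 lost and 28 gained the call, and 0 reversed. The number of members called under the Myf5 label was 0 of 10, where 0% of all genes were called. It was 1 with DESeq2 (4.27% of all genes) and 1 without both Ucp1 GFP-positive libraries (1.4%). Under the Ucp1 label (2, with 14.3% of all genes) it was 0 with only the groups compared, where 23.3% of all genes were called. Without 1 library it moved both ways, as did the calls over all genes. For the difference between lines (1, with 11% of all genes) it was 2 with DESeq2 (18.3%) and 0 with only the groups compared (7.57%). It was 2 without mitochondrial and milk genes (1826 of 17079 genes). Without 1 library it moved both ways, as did the calls over all genes. Between GFP-positive myoepithelial cells and brown adipocytes it was 8 in the Myf5 line (5, with 19.8% of all genes) without both Ucp1 GFP-positive libraries (37.5%). Without 1 library it was lower there, as were the calls over all genes. In the Ucp1 line (6, with 27.8%) it was 0 with only the groups compared (0%). Without 1 library it was the same or lower there, while the calls over all genes moved both ways. Between GFP-negative myoepithelial cells and brown adipocytes (8, with 26.6% of all genes) it was the same or lower without 1 library. Fewer of all genes were called in every such fit. Between the lines' brown adipocytes (1, with 1.32% of all genes) it was 2 with no filter (257 of 23550 genes), 3 with DESeq2 (8.77%) and 2 with only the groups compared (5.74%). It was 3 without both Ucp1 GFP-positive libraries (5.62%) and 0 with the replicate block (76 of 16953 genes, Pfkfb3 at an edgeR adjusted p of 0.0575). The main call was lost without any 1 library. The replicate numbers of the block did not pair the samples (correlations of deviations of -0.078 to 0.32). Between GFP-positive myoepithelial cells and brown adipocytes the block gave 6 in the Myf5 line (Pfkp gained, 2635 of 16953 genes) and 5 in the Ucp1 line (Slc2a1 lost, 3802 of 16953 genes). It gave the main count in the other 5 comparisons. Its pathway count under the Ucp1 label was 11 against 18, where 1853 against 2423 of 16953 genes were called.

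Without 1 library the share differences ranged from -58.02 to -50.66 points for Slc2a4, -64.65 to -56.78 for Hk2, -34.52 to -29.51 for Pfkl, 10.28 to 12.31 for Pfkm, 18.22 to 22.21 for Pfkp and -4.36 to 4.53 for Pdk4, where 4 removals turned the sign, and with 3 against 4 libraries the exact permutation p cannot go below 0.0571. Uncalled log2 fold changes turned sign for Slc2a4 under the Myf5 label (-1.90 to 0.074, with 0.011 without another library), Pfkm under the Ucp1 label (-2.74 to 0.034) and Pfkp between Ucp1 GFP-positive myoepithelial cells and brown adipocytes (-1.54 to 0.215). Pathway calls under the Myf5 label (0) were 6 with DESeq2 (4.27% of all genes), 3 with limma-voom (567 of 16953 genes) and 2 without both Ucp1 GFP-positive libraries (1.4%). Under the Ucp1 label (18) they were 31 with limma-voom (30.4%). For the difference (11) they were 20 with DESeq2 (18.3%) and 7 with only the groups compared (7.57%). Between Ucp1 GFP-positive myoepithelial cells and brown adipocytes (49) they were 0 with only the groups compared (0%). Between the lines' brown adipocytes (2) they were 10 with DESeq2 (8.77%), 0 with limma-voom (0.248%) and 7 with only the groups compared (5.74%). They were 4 without both Ucp1 GFP-positive libraries (5.62%) and 1 with the replicate block (76 of 16953 genes). RLE factors moved the all-gene median from 0.35 to 0.12 between GFP-negative myoepithelial cells and brown adipocytes and from -0.69 to -0.51 under the Ucp1 label, and no member changed direction. The cause of these changes was not tested.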

Other observations

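Summed over each family per kilobase, the phosphofructokinase genes reached 73.5 and 291 CPM per kilobase in Ucp1 and 391 and 423 in Myf5 brown adipocytes, and 25.6 to 51.2 in the 8 mammary libraries. The hexokinase pair spanned a narrower range, with 21.03 and 45.0 CPM per kilobase in Ucp1 and 50.8 and 44.2 in Myf5 brown adipocytes, and 11.5 to 28.8 in mammary libraries, so that the first Ucp1 brown library lay within the mammary range. The first Ucp1 brown library, lower than its partner in all 10 members, had 35.997% of its counts on the mitochondrial chromosome, the most of the 12 libraries.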
